A study of Mus musculus with 16 samples.

Results

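The probes described here are the 100 named probes of an Agilent mouse array that stood highest above the untreated and the 4 week arrays after 2 weeks of cuprizone (CPZ) feeding. For each probe, the highest value on the 3 untreated arrays and the 4 arrays of mice fed CPZ for 4 weeks was subtracted from the lowest value on the 3 arrays of mice fed CPZ for 2 weeks. This difference, on the log2 scale, is called the gap. The 100 largest gaps among the 27459 probes that matched a gene symbol, out of 41153 probes in all, belonged to 96 genes. The members were thus selected on the values of these 10 arrays, which are a description and carry no test.

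The samples were RNA of the corpus callosum of male wild-type C57BL/6 mice, aged 7–8 weeks when included. Untreated mice (n = 3) were kept on normal diet and matched in age to the 4 week group. The other groups received CPZ mixed into powdered chow for 2 weeks (n = 3), for 4 weeks (n = 4), or for 4 weeks followed by regular diet (n = 6). The methods give 0.2% CPZ, whereas the sample labels give 0.2 to 0.4%. The regular diet group joins 2 and 14 days after CPZ in the methods, and the labels do not separate these times, so its spread holds both. No such match is given for the 2 week group, and the part of age in the values was not tested.

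CPZ is a copper chelator that kills mature oligodendrocytes, the cells that wrap axons in myelin, and the corpus callosum is the tract in which this is usually followed. Loss of oligodendrocytes begins within the first weeks of feeding, microglia and astrocytes react and clear myelin debris, and new oligodendrocytes form from precursors when the diet returns to normal. The detection on the arrays is given as counts over all members and beside the values of some of them.

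Of the 9 oligodendrocyte markers, 8 were on the array and were well above background on every untreated array. Their summed level, as a multiple of the 75th percentile of the array, was 609 to 1300 in untreated mice, 32.0 to 268 after 2 weeks, 43.2 to 372 after 4 weeks and 97.2 to 1220 on regular diet. No member was in any of the 15 cell type marker lists. In bulk RNA, fewer cells of a type and less RNA per cell cannot be told apart. Each array is a replicate as numbered in the labels. The share of probes well above background was 57.3 to 72.2% per array, and it was lowest on untreated array 1 (57.3%) and 4 week arrays 2 (60.3%) and 3 (59.2%), which also resembled each other. Without these 3 arrays, 44 of the 100 members were among the 100 largest gaps. The scanner file recorded for a sample carried another sample's column of the processed table in 14 of 16 samples, 13 of them from another group, and the columns of the table were used. With the values taken from the scanner file recorded for each sample, 0 of the 100 members remained.

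Sequences are shown for 5 member genes: the first pair has the largest gaps, Helz2 and Vegfa had 2 member probes each, and Plekha4 had the smallest adjusted p on regular diet. The 250 bases before the start that lies farthest upstream are from RefSeq (GRCm38.p6), 5′ to 3′ on the strand of the gene. Capitals mark, on either strand, the letters TATAAA known from core promoters, the CCAAT box of that spelling, the box bound by Sp1 (GGGCGG), the interferon-stimulated response element (TTTC on both sides of any 2 bases), the hypoxia response element core (ACGTG) and the AP-1 site (TGANTCA). No base of these windows lay in matches of more than 1 motif.
Sprr4, chr3:92500494-92500743, minus strand: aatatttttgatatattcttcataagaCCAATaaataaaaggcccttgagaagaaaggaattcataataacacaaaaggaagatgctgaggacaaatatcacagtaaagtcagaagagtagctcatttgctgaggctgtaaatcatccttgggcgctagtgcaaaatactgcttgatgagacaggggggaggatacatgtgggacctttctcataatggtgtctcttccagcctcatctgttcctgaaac
4933430I17Rik, chr4:62525119-62525368, plus strand: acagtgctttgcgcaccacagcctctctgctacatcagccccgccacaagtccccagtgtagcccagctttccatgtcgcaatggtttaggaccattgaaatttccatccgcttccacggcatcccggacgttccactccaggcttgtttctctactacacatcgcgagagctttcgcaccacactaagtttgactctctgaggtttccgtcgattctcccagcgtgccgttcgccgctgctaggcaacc
Helz2, chr2:181242028-181242277, minus strand: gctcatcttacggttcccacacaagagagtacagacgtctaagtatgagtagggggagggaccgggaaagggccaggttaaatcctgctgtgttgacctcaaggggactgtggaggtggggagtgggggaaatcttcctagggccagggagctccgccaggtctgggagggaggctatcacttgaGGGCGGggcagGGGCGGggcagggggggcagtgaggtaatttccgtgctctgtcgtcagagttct
Vegfa, chr17:46032378-46032627, minus strand: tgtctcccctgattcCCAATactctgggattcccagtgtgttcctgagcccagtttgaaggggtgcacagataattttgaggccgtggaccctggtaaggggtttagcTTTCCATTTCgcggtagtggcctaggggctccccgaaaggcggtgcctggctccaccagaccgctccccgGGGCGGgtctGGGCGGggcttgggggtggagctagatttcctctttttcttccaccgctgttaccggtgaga
Plekha4, chr7:45526080-45526329, plus strand: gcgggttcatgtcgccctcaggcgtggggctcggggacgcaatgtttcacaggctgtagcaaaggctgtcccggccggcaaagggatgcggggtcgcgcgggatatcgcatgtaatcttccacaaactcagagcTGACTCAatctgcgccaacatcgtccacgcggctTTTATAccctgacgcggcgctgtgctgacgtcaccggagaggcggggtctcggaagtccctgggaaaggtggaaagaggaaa

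The table of promoters held 76 of the 96 member genes. A CCAAT box lay in the window of 47.4% of these genes and of 37.5% of the 27025 genes in the table, and GGGCGG in 47.4% and 35.4%. TATAAA was present in 17.1% and 14.3%, and ACGTG in 23.7% and 18.5%. The interferon-stimulated element was present in 5 member genes (6.6%), Gpr141b, Tgtp1, Vegfa, Washc3 and Xntrpc, and in 3.5% of all genes. TGANTCA was present in 10.5% and 7.8%. The median GC content of the windows was 55.2% for the members and 52.4% for all promoters. These are descriptions of letters in windows before starts, and no motif was tested for.

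The values are log2 relative to the median of the 3 untreated arrays of the probe, after scaling to the 75th percentile of the array. The gap of the members ranged from 0.18 to 2.13, with a median of 0.32. It was above 1 for 3 probes and above 0.5 for 21. Of all named probes, 365 (1.33%) had a gap above 0 and 3 (0.0109%) a gap above 1, which 9 of all 41153 probes (0.0219%) also had. The opposite order, with every 2 week array below all 7 untreated and 4 week arrays, held for 679 named probes (2.47%) and for 2.53% of all probes. Most members thus cleared the 7 other arrays by less than 0.5 (log2).

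The mean at 2 weeks exceeded the untreated mean by 0.35 to 5.60 (log2), with a median of 1.23, and by at least 1 for 63 of the 100 members, as measured and including the 25 members that were above background on no untreated array. Values at 2 weeks were often highest on array 1, for 65 members, and lowest on array 3, for 50. Within the 2 week group, array 1 also had the highest summed level of marker genes of meninges and fibroblasts (36.4, against 5.99 and 9.11 on arrays 2 and 3). The same held for ependyma (31.8, against 5.04 and 9.63), choroid plexus (14.7, against 2.39 and 5.21) and red blood cells (113, against 23.6 and 47.4). On the untreated and 4 week arrays these levels reached 16.7, 30.3, 53.0 and 143, in the same order. The part of these markers in the members' values was not tested. Arrays 1 and 3 of the 2 week group lay on 1 slide and array 2 on another, untreated arrays lay on 3 of the 4 slides, 4 week arrays on 3 and regular diet arrays on 4. Among the 7 arrays that set the upper bound, 4 week array 1 was the highest for 29 members and untreated array 3 for 25. The corresponding shares over all probes were 23.8% and 8.2%, so untreated array 3 set the bound more often among members than among probes at large.

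Detection varied widely. Of the members, 85 were well above background on every 2 week array, 9 on some and 6 on none. The 6 were Olfr1170, Gpr141b, 4930449I24Rik, Ldlrad1, Washc3 and Lce3f, and their order rests on signals that were not above background at 2 weeks. On the 7 untreated and 4 week arrays, 41 members were well above background on each, 35 on some and 24 on none. All 16 arrays were above background for 40 members, against 53.5% of all probes. For comparison, 65.7% of all probes were well above background on every 2 week array. The pattern of detection on every 2 week array and on no untreated or 4 week array held for 9 members, out of 20 such probes with a gene symbol and 41 (0.0996%) on the whole array. The 9 were Sprr4, 4933430I17Rik, Plaat5, Mslnl, Ghrl, Foxc2, Ccl7, 2310001H17Rik and Ecm1. Of these, Sprr4, Plaat5 and Ghrl were not above background on any regular diet array either. This describes the member probes. Another, brighter probe of Ghrl was above background on 2 of the 3 untreated arrays and on every array of the other groups. A brighter probe of Ecm1 was above background on all 16 arrays. The other probe of Ccl7 kept the pattern, and that of Plaat5 was above background on no array.

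**Figure D1:**
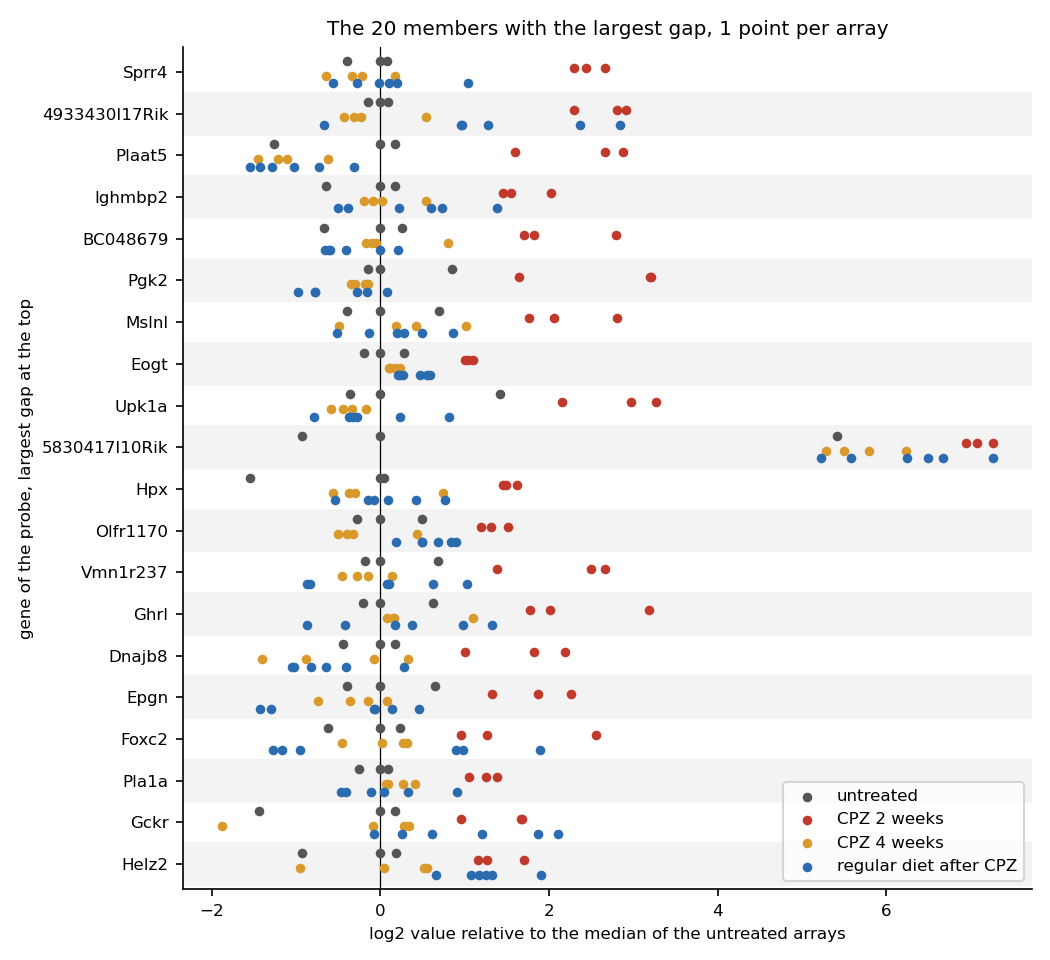
Values of the 20 members with the largest gap, as log2 relative to the median of the untreated arrays, with 1 point per array and 1 colour per group. The 3 points of 2 weeks of CPZ lie to the right of all untreated and 4 week points by the rule, while regular diet points reach them for 4933430I17Rik, 5830417I10Rik, Foxc2, Gckr and Helz2.

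Roles were given to the 96 genes after the list was known, so the groups carry no test. The roles were gene regulation and cell cycle (25 probes), metabolism, transport and signalling (14), cytoskeleton, adhesion and matrix (13), immune (10), clone names and non-coding (10), stress and cell death (8), chemosensory and retinal (8), epithelial surface (6), and germ cell and cilium (6). The groups differed in detection. None of the epithelial or the chemosensory and retinal members was well above background on every untreated and 4 week array, whereas 17 of 25 in gene regulation were.

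**Figure D2:**
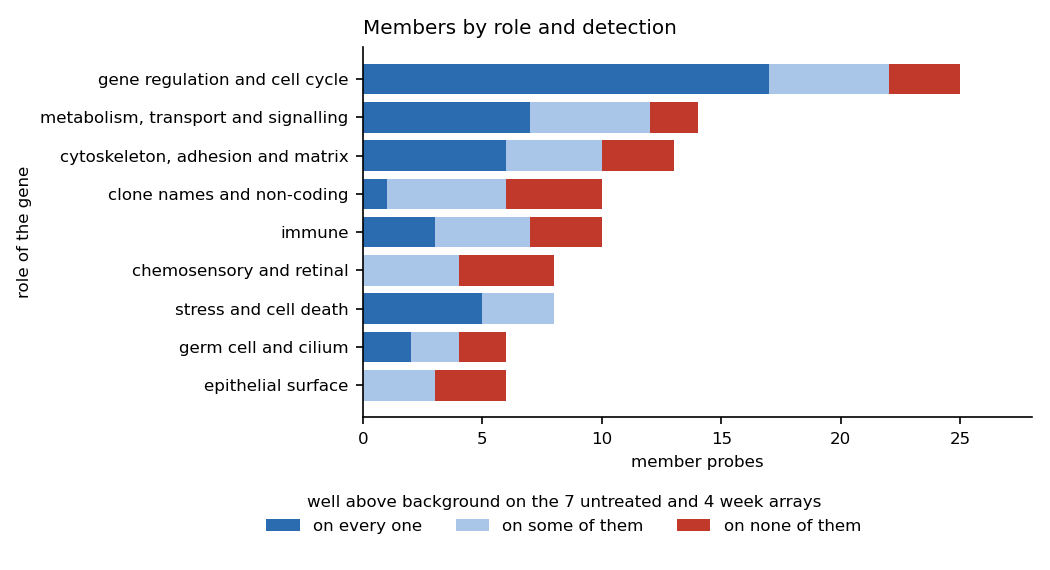
Number of member probes by role of the gene, divided by whether the probe was well above background on each, on some or on none of the 7 untreated and 4 week arrays. Detection on all 7 arrays was found for 17 of the 25 probes in gene regulation and for 0 of the 6 epithelial probes.

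The epithelial surface group held the member with the largest gap. Sprr4 encodes a small proline-rich protein of the cornified envelope of skin. Its values were 2.67, 2.44 and 2.30 after 2 weeks, -0.39, 0.08 and 0.00 in untreated mice, and -0.22, 0.17, -0.64 and -0.34 after 4 weeks. All 3 arrays of 2 weeks were apart from the others and close together, at 2.47 ± 0.18 (SD, n = 3). Since the untreated arrays were not above background, the fold is a bound, at least 2.12-fold over untreated and 1.92-fold over 4 weeks. On regular diet Sprr4 ranged from -0.56 to 1.04 with a median of 0.05, and no array reached the lowest 2 week value.

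The other epithelial members were nearer to the untreated and 4 week arrays. Upk1a, a uroplakin of the bladder lining, was at 3.27, 2.97 and 2.16 after 2 weeks, and at 1.42 on untreated array 3 against 0.00 and -0.36 on the others. Its 4 week values were below 0 on all 4 arrays, and it was at least 2.54-fold higher at 2 weeks than at 4 weeks. Another probe of Upk1a, above background on all 3 arrays of 2 weeks and on 1 untreated array, had a gap of -0.59. Mslnl, a mesothelin-like protein, was at 2.06, 2.81 and 1.76, with a highest 4 week value of 1.02. Epgn, an epidermal growth factor receptor ligand, was at 2.26, 1.87 and 1.33, against 0.65 on the highest untreated array. Psors1c2 had a gap of 0.43, and Lce3f, another cornified envelope gene, one of 0.22 without detection on any array. No regular diet array reached the lowest 2 week value in any of the 6 members. By symbol, keratins and cornified envelope genes were 2.0% of the members and 0.481% of all named probes. The summed level of 5 keratinocyte markers was 0.324 to 0.376 at 2 weeks and 0.366 to 0.517 in untreated mice, so these markers were not higher at 2 weeks.

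In the germ cell and cilium group, Plaat5, a phospholipase and acyltransferase known from testis, had the third largest gap (1.43). Its values were 2.88, 2.66 and 1.60 after 2 weeks, 0.00, -1.26 and 0.17 in untreated mice and -0.62 or lower after 4 weeks. No array outside the 2 week group was above background, and the 2 week mean was at least 3.02-fold over untreated, 2.73-fold over 4 weeks and 3.64-fold over regular diet. Another probe of Plaat5 was above background on no array of any group.

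Pgk2, the testis form of phosphoglycerate kinase, was at 3.20, 3.21 and 1.64 after 2 weeks and was above background on 2 of these arrays. Its highest value elsewhere was 0.85, on untreated array 3. Dnajb8, a testis chaperone of the Hsp40 family, was at 2.19, 1.82 and 1.01. Actl11, an actin-like gene, was at 2.06, 1.88 and 1.1. Array 3 was the lowest of the 2 week arrays in these 3 genes and in Plaat5. Spag1 and Stk36, which serve the assembly of motile cilia, were detected on all 16 arrays and differed less from untreated, by 0.92 and 0.96 (log2).

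Clone names covered 10% of members and 4.06% of all named probes. 4933430I17Rik had the second largest gap (1.76). It was at 2.91, 2.81 and 2.30 after 2 weeks, between -0.14 and 0.09 in untreated mice and at 0.54, -0.43, -0.23 and -0.31 after 4 weeks. It was at least 2.07-fold higher than untreated and 1.87-fold higher than 4 weeks. On regular diet it spread from -0.67 to 2.84, with arrays 1 and 2 at 2.37 and 2.84 inside the 2 week range.

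5830417I10Rik entered the list with 2 probes, both above background on 1 of the 3 untreated arrays and on every array of the other groups. On the first probe the 2 week values were 7.27, 6.94 and 7.07. Untreated mice were at 0.00, 5.42 and -0.93, the 4 week mice at 5.28 to 6.23 and regular diet at 5.23 to 7.27. Untreated array 2 thus lay with the CPZ groups and the other untreated arrays did not, and the SD of the untreated group was 3.43 (n = 3). On the other probe the arrays fell the same way, with untreated values of -0.18, 3.77 and 0.00 and 2 week values of 5.38, 4.98 and 5.14. The gap of these probes, 0.72 and 0.44, is therefore the distance from the other CPZ arrays. BC048679 was at 2.79, 1.71 and 1.82 but was above background on 1 of the 3 arrays. 9530091C08Rik had untreated array 1 at -4.92 and 4 week arrays 2 and 3 at -4.50 and -6.71, the same 3 arrays that had the lowest detection, and its gap was 0.21.

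The immune group was led in size by Ccl7, a chemokine that draws monocytes through the receptor Ccr2. Its values after 2 weeks were 3.64, 2.41 and 4.06, against 0.15, 0.00 and -0.79 in untreated mice. After 4 weeks 3 arrays were at 0.03 to 0.25 and array 3 was at 1.99. The 2 week mean was 3.37 ± 0.86 (SD, n = 3), at least 3.24-fold over untreated and 2.81-fold over 4 weeks. Another probe of Ccl7 was likewise above background on all 3 arrays of 2 weeks and on no untreated or 4 week array, with a gap of -0.33. On regular diet Ccl7 was at 2.36, 2.26, 2.40, 1.90, 0.36 and 0.26, so 4 arrays lay near the lowest 2 week value and 2 near untreated.

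Il18bp encodes a secreted protein that binds and neutralizes interleukin 18. It was at 1.22, 0.92 and 1.36 after 2 weeks, at -1.87, 0.52 and 0.00 in untreated mice and at 0.47, -1.08, 0.32 and 0.12 after 4 weeks. On regular diet its lowest, median and highest values were 0.68, 1.16 and 2.18, all above the highest untreated and 4 week value. Another probe of Il18bp had a gap of 0.07, so 1 more probe gave the same order. Chemokines and cytokines by symbol were Ccl7 and Il18bp, 2.0% of members and 0.739% of all named probes.

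Helz2, a helicase and nuclear receptor coactivator that is induced by interferon, entered with 2 probes. On the first one it was at 1.27, 1.16 and 1.70 after 2 weeks, at -0.93, 0.19 and 0.00 in untreated mice and at 0.55, -0.95, 0.52 and 0.05 after 4 weeks. On regular diet it stayed at 0.66 to 1.91. The other probe, detected on 1 of the 3 arrays of 2 weeks, was at 1.23, 1.03 and 1.66. The order of the 2 week arrays was the same on both probes. Tgtp1, an interferon-induced GTPase, was at 1.33, 1.23 and 0.55 with regular diet between -0.18 and 0.47. Another probe of Tgtp1 had a gap of -1.72. Pla1a, a phosphatidylserine-specific phospholipase, was detected on all 16 arrays, at 1.38, 1.05 and 1.25 against 0.41 on the highest untreated or 4 week array and 0.91 on the highest regular diet array. Niban3, a gene known from B cells, was at 1.72, 1.30 and 2.02. The summed level of 9 microglial markers was 26.8 to 55.7 in untreated mice, 40.2 to 96.6 at 2 weeks, 67.2 to 159 at 4 weeks and 75.2 to 783 on regular diet. Thus the microglial markers were not highest at 2 weeks, and their part in these values was not tested.

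Stress and cell death genes were mostly detected, with 8 of 8 probes above background on every 2 week array and 5 on all untreated and 4 week arrays. Hpx, the plasma protein hemopexin that binds free heme, was at 1.46, 1.62 and 1.49 after 2 weeks, or 1.52 ± 0.09 (SD, n = 3). Its untreated values were -1.54, 0.00 and 0.04, and its highest 4 week value was 0.75. Bcl2l14, a relative of Bcl2, was at 3.54, 2.96 and 2.17, with untreated array 3 at 1.74 and the others near 0. It is a further member whose bound was set by untreated array 3.

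Gadd45b, a stress and DNA damage response gene, was at 1.23, 0.72 and 1.36, and was above background on all 16 arrays. Its highest value outside the 2 week group was 0.50, on 4 week array 3. Another probe had a gap of -0.16. Fkbp5, a co-chaperone induced by glucocorticoids, was at 1.67, 1.79 and 1.43, with untreated array 2 at 1.01 and 4 of 6 regular diet arrays at or above the lowest 2 week value. Its other probes had gaps of -0.97 and -1.05. Xdh, xanthine dehydrogenase of purine breakdown, was at 1.59, 1.52 and 2.10 and reached 1.19 after 4 weeks, and regular diet arrays 1, 2 and 3 were at 2.05, 2.63 and 1.83. Map3k6, a stress kinase, was at 1.43, 0.79 and 1.03 with no regular diet array above 0.39.

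Vegfa, the growth factor of blood vessels, entered with 2 probes. The first was at 0.98, 0.37 and 0.56 after 2 weeks and the other at 1.02, 0.69 and 0.83. Untreated values were -1.04, 0.00 and 0.16, and -0.53, 0.00 and 0.43. Regular diet lay between -0.13 and 1.08, and between 0.05 and 0.93, across the range of the 2 week arrays. Further probes of Vegfa, above background on every array, had gaps of -0.5 and -1.13. Their 2 week means exceeded the untreated means by 0.8 and 0.62 (log2). From the 4 week means they differed by 0.6 and -0.14. The summed level of 7 endothelial markers was 13.4 to 26.3 in untreated mice and 13.6 to 16.7 at 2 weeks.

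Gene regulation and cell cycle was the largest group, and 17 of its 25 probes were detected on all untreated and 4 week arrays. The difference of these 17 from untreated ranged from 0.37 to 1.56 (log2), and the median gap of the group was 0.30. Orc4, a subunit of the origin recognition complex, was at 0.54, 0.72 and 0.61 against at most 0.08 on the untreated and 4 week arrays. Its other probes had gaps of -0.58 and -1.13. Kdm7a, a histone demethylase, was at 1.05, 1.02 and 0.64, and its other probes had gaps of -0.17 and -0.38. Sertad1, a transcription cofactor of the cell cycle, was at 0.85, 0.77 and 0.41, and another probe had a gap of 0.12. Kdm5c, also a histone demethylase, and Zbtb43, Zfp326 and Zfp511, zinc finger proteins, differed from untreated by 0.37, 0.49, 0.68 and 0.38.

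Several regulators were dim. Foxc2, a forkhead factor of mesenchyme and vessels, was at 2.56, 1.27 and 0.96. On regular diet it ranged from -1.27 on array 1 to 1.89 on array 4. Among the regular diet arrays, these had the lowest and the highest summed level of the meningeal and fibroblast markers (3.11 and 23.7). Whether Foxc2 and these markers go together was not tested. H2ac8, a histone gene, was at 3.04, 1.89 and 1.98 and was above background on 2 of the 3 arrays. Ighmbp2, a helicase mutated in a motor neuron disease, had a gap of 0.92 but was above background on 1 array. Tert, the catalytic subunit of telomerase, was at 1.80, 1.21 and 0.97, with untreated values of -0.92, 0.58 and 0.00. Zinc finger genes by symbol were 2.0% of members and 2.06% of all named probes.

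Among genes of metabolism, transport and signalling, Eogt encodes an enzyme that adds N-acetylglucosamine to extracellular proteins. After 2 weeks it was at 1.01, 1.1 and 1.04, or 1.05 ± 0.05 (SD, n = 3), and all 16 arrays were above background. Untreated values were -0.19, 0.00 and 0.28, 4 week values 0.11 to 0.23 and regular diet 0.21 to 0.59. The 2 week mean was 2.03-fold the untreated mean. Ghrl, the gene of the hormone ghrelin, was at 3.19, 1.78 and 2.01, with 1.1 on 4 week array 1 and 0.08 to 0.16 on the others. Another probe of Ghrl exceeded untreated by 0.69 with a gap of -0.49.

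Gckr, the regulator of glucokinase, was at 1.67, 0.96 and 1.68 with regular diet up to 2.11. Slc23a3, of the ascorbate transporter family, was at 1.27, 3.54 and 1.1 and had the largest SD of the members at 2 weeks, 1.36 (n = 3). Mfn1, a mitochondrial fusion protein, was at 0.33, 0.42 and 0.33, and another probe had a gap of 0.06. Aco1, the iron-regulated aconitase, was at 1.24, 0.91 and 0.41. Plekha4, a pleckstrin homology domain protein, was at 1.78, 2.08 and 1.70 against 0.72 to 1.47 after 4 weeks and -0.81 to 0.03 in untreated mice. It was thus already higher than untreated on every CPZ array. Another Plekha4 probe had the opposite sign at 2 weeks, with a difference of -0.84 (log2) from untreated.

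In the group of cytoskeleton, adhesion and matrix, Farp1, a guanine nucleotide exchange factor, entered with 2 probes. The values were 0.92, 0.71 and 0.72 on the first and 1.1, 0.89 and 0.73 on the other, while untreated values were within 0.11 of 0 on both. After 4 weeks Farp1 was at 0.15 to 0.37 and 0.34 to 0.42. Avil, advillin, an actin-binding protein of sensory neurons, was at 2.92, 1.92 and 2.19 and reached 1.54 on 4 week array 1. Myl1, a skeletal muscle myosin light chain, was at 3.58, 3.29 and 2.11 with 0.83 to 1.75 after 4 weeks. The summed level of 5 skeletal muscle markers was 0.400 to 0.938 at 2 weeks and 0.477 to 0.866 in untreated mice. Ecm1, an extracellular matrix protein, was at 2.05, 1.82 and 0.85, and another, brighter probe exceeded untreated by 0.92 with a gap of -0.21. Pcdh12, an endothelial protocadherin, was at 1.95, 1.72 and 0.49, and was above background on 2 of these arrays and on no other. Another probe of Pcdh12 differed from untreated by -0.55 with a gap of -1.78.

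Chemosensory and retinal genes had a median gap of 0.20. Olfr1170 was at 1.52, 1.20 and 1.31, but no array of any group was above background. Vmn1r237, a vomeronasal receptor, was at 2.50, 2.67 and 1.38 and was above background on 2 of these arrays. Olfactory and vomeronasal receptors were 5.0% of members and 3.91% of all named probes. Rtbdn and Impg2 are genes of the retina, and the member probe of Impg2 was above background on 1 array of 2 weeks and on no other array. In Rtbdn, detected on 2 of the 3 untreated arrays, the arrays of lowest detection were again low, with untreated array 1 at -2.21 and 4 week arrays 2 and 3 at -2.66 and -2.53.

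Other probes of the same genes give a further reading of the same RNA on the same arrays. They existed for 50 of the 96 genes, as 67 probes, and are given above for only some of these genes. Of these 67, 4 (6.0%) had a gap above 0, in Il18bp, Mfn1, Sertad1 and Sinhcaf. The background share was 1.46% of all probes. Their 2 week mean was above both the untreated and the 4 week mean on 43 probes (64.2%), against 33.6% of all probes. The median gap was -0.61 for these probes and -0.83 for all probes. Of the 47 other probes detected on all 16 arrays, the 2 week mean was above untreated on 34 and below it on 13, and the difference ranged from -0.84 in Plekha4 to 1.44 in Tgtp1, with a median of 0.21 (log2). The 67 probes leave out by construction the second member probes of 5830417I10Rik, Helz2, Farp1 and Vegfa, on which the order also recurred.

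**Figure D3:**
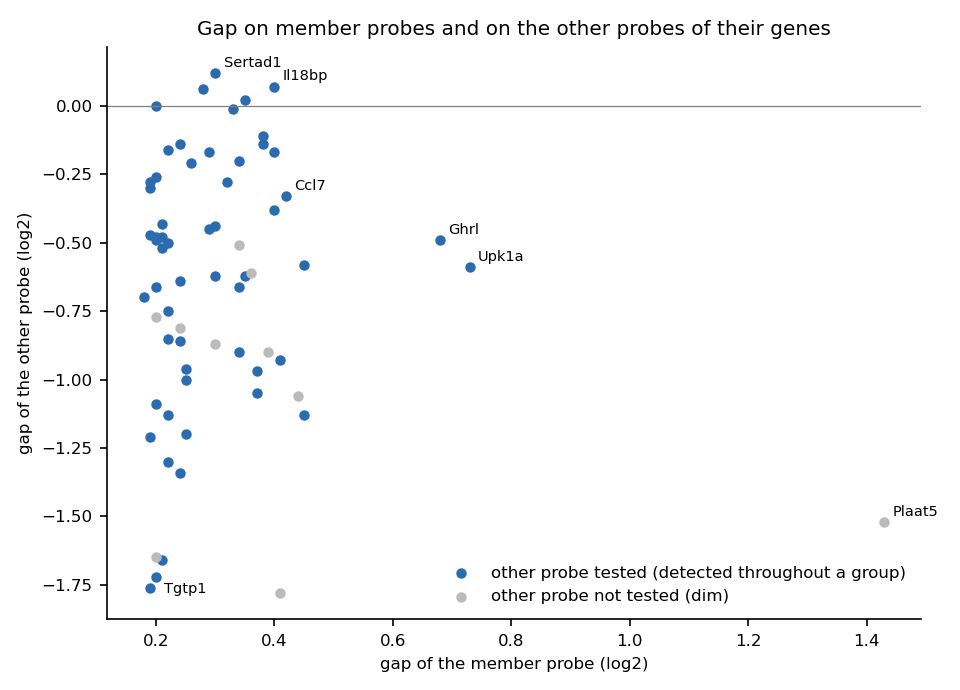
Gap of the member probe (horizontal) against the gap of each other probe of the same gene (vertical), both in log2, for 67 other probes, with tested probes in blue and dim ones in grey. Only 4 probes lie above 0, and the other probe of Plaat5, not above background on any array, lies at -1.52.

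The threshold cut through a dense set. The members just inside were Xntrpc with a gap of 0.19, Olfr127 with 0.18 and Bmpr1a, a receptor of bone morphogenetic proteins, with 0.18. Just outside were Sec24a, Map2k3os and Fnd3c2, each with 0.18. The lowest 2 week values of Olfr127 and Sec24a, 0.94 and 0.38, differed more than their gaps.

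The regular diet arrays were not used to choose the members. The list was proposed as probes highest only at 2 weeks, and the regular diet values bear on that name. For 61 of the 100 members no regular diet array reached the lowest 2 week value, for 38 between 1 and 5 arrays did and for 1, 2310001H17Rik, all 6 did. Thus 39 members were not highest at 2 weeks alone. Over all 601 probes with a gap above 0, the share without any such regular diet array was 44.8%. The mean on regular diet exceeded the 2 week mean in Il18bp, 2310001H17Rik, Washc3 (not above background on any array of these groups) and Sh3pxd2b. Every regular diet array was above the highest untreated and 4 week value in Helz2 (the first probe), Il18bp, Syncrip, 2310001H17Rik and Sh3pxd2b, and below every untreated array in Actl11, which was above background on no regular diet array.

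The number of members at or above their lowest 2 week value was 16, 25, 19, 12, 6 and 15 on regular diet arrays 1 to 6. Arrays 1 and 2 also had a summed level of the 9 microglial markers of 631 and 783, against 75.2 to 112 on the other 4, and all 9 markers were above background on every regular diet array. The part of this in the members' values was not tested. The median over members was 1.32, 1.04 and 0.91 on the 2 week arrays and 0.05 to 0.33 on the regular diet arrays, against a median over all probes of the regular diet mean of -0.15.

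**Figure D4:**
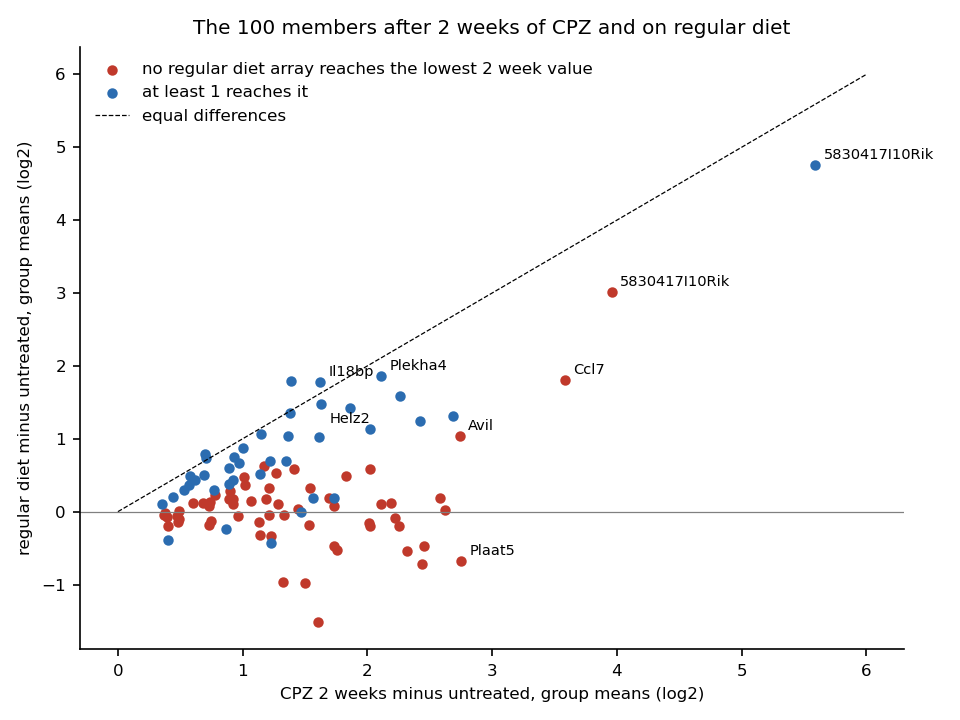
Difference from the untreated mean (log2) after 2 weeks of CPZ (horizontal) and on regular diet (vertical) for the 100 members, coloured by whether at least 1 regular diet array reached the lowest 2 week value. The 61 members that were not reached lie mostly near 0 on the vertical axis, and Il18bp and Plekha4 lie near the dashed line of equal differences.

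Regular diet was compared with untreated mice and with the 4 week group by limma, fitted on the 27774 probes that were detected throughout at least 1 group. Of the members, 85 were tested, 27 of them only through detection on the 2 week arrays, and 15 were not. Because the untreated and 4 week arrays set the bound of the rule, the members are low on them by choice. The counts, medians, differences and p-values of members below are therefore a description that carries no support. Against untreated, 223 probes (0.803%) were called at an adjusted p under 0.05 and at least 2-fold, 220 (0.792%) of them higher and 3 (0.0108%) lower on regular diet. Among the tested members 3 were called, all higher, 2 of which were the probes of 5830417I10Rik. An unadjusted p under 0.05 was found for 24 tested members (28.2%), 22 higher and 2 lower, and for 2944 of all tested probes (10.6%).

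As the untreated arrays served to choose the members, the p-values of members given here are no unbiased test. Plekha4 was higher on regular diet by 1.87 (SE 0.26; limma, adjusted p = 0.00491). On this member probe all 6 regular diet arrays, at 1.21 to 2.11, were above the untreated arrays. A brighter probe of Plekha4, above background on every array, differed from untreated by -0.84 (log2) after 2 weeks of CPZ. The regular diet values of that brighter probe are not given here. The probes of 5830417I10Rik were higher by 4.75 (SE 0.97; limma, adjusted p = 0.0369) and 3.01 (SE 0.66; limma, adjusted p = 0.0499). Both probes of 5830417I10Rik were above background on 1 of the 3 untreated arrays, and untreated array 2 lay inside the range of regular diet. With normexp the differences of these probes were 1.34 and 0.33, and that of Plekha4 was 0.9 (limma, adjusted p = 0.0553). With replicate number as a block, Plekha4 was higher by 1.68 (limma, adjusted p = 0.077). Plekha4 stayed called in 15 of the 16 fits with 1 array left out. Without untreated array 3, 0 members and 5 of all tested probes were called. With 9 other arrays left out in turn (untreated 1, 2 week 1 and 3, 4 week 1 and 4, and regular diet 1, 2, 3 and 6), 1 member was called each time, among 105 to 212 probes. Helz2 (1.48, SE 0.35; limma, adjusted p = 0.068) and 2310001H17Rik (at least 1.88-fold; limma, adjusted p = 0.0568) missed the threshold. So did Ccl7 (limma, adjusted p = 0.248), which was above background on 3 regular diet arrays and on no untreated array. Sprr4 and Plaat5 were above background on no array of either group.

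The median difference of the tested members was 0.19 (log2), beside -0.02 over all tested probes. It was 0.05 without untreated array 1 and also without the 3 arrays of lowest detection, and 0.32 without untreated array 3. With normexp background correction of the scanner signals the median turned to -0.27, beside -0.18 over all tested probes.

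Against 4 weeks of CPZ, 1 probe (0.0036%) was called among all tested and 0 of the members by limma. At an unadjusted p under 0.05 there were 6867 probes (24.7%) and 18 members (21.2%), 17 of them higher and 1 lower. The methods' test also called 0 members. The median difference of the tested members was 0.26, beside 0.01 over all tested probes. With normexp the median turned to -0.13, beside -0.10 over all tested probes. Without the 3 arrays of lowest detection, 999 probes (3.6%) and 2 members were called, 2310001H17Rik higher and Actl11, above background on no array of either group, lower on regular diet. With untreated array 1, 4 week array 1 or 4 week array 3 left out, 3 members were called each time, among 1205, 1548 and 342 of all tested probes.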

How the data were processed

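RNA of 16 corpus callosum samples was hybridised to 1-colour Agilent 4x44K mouse arrays on 4 slides. The authors deposited spot intensities of Agilent Feature Extraction 11.0.1.1, background-subtracted within each array. A processed table was deposited as well, whose log2 values the authors made in GeneSpring with scaling to the 75th percentile. In this deposited table the median of the 3 untreated columns is 0 for 100.0% of probes, so the values are relative to it. Direction and log base were checked against the scanner signals. These log2 values are the main values here.

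Each column of the table was assigned to the scanner file with the same values (r 0.997 to 1.0, the next best at most 0.82). The scanner files gave the flags for background and the slides. After 75 control rows were left out, 41153 probes remained, and 27459 (66.7%) matched a gene symbol of GRCm38.p6 through their accession. The 27774 probes detected throughout 1 or more of the groups were tested. All 16 arrays were fitted in 1 model with 4 groups by limma 3.58.1 in R 4.3.3, with 12 residual and 2.3 prior degrees of freedom and a median residual SD of 0.386. The threshold of a call was 0.05 after Benjamini-Hochberg adjustment together with a 2-fold change. Lower bounds set the mean of the bright group against, per array, the higher of the lowest detected signal and the probe's own. The number of arrays limits the precision. The methods give 3 to 6 mice per condition. The labels name no mouse for a sample, and p-values measure the spread between these samples.

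On simulated data for regular diet minus untreated with 27774 probes, 8, 39, 43 and 48 of 50 changed probes were called at log2 changes of 1, 2, 3 and 4, and 6 probes falsely. These counts do not cover the dependence on single arrays. On the measured data, 5 to 243 probes were called with 1 array left out.

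The named members are the 20 with the largest gap, those called on regular diet, genes with 2 member probes, chemokines and cytokines, and the 3 just inside and just outside. Other members are named as examples of a role and were chosen after their values were seen. The members and lists were chosen with earlier results of these data known. The lists by symbol also covered defensins, immunoglobulin and T cell receptor genes, serpins, cytochromes P450, channels, homeobox genes and ribosomal proteins, with 0 members each, and solute carriers, with 1 member (1.0%, against 1.85% of named probes). Alternatives were the scanner signal, normexp on the median foreground signal in place of the mean, quantile normalization (scanner signal), the recorded arrays, filters, blocks for slide and replicate number, the 2 groups alone, the methods' ANOVA with Tukey test, and each array left out. The exclusion of the 3 arrays of lowest detection was chosen after seeing the data.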

Additional observations from a re-analysis of the deposited data

Results flagged for a closer look

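In 3 of 70 groups examined for the named members, 1 array lay far from the others of its group, which is 4.3%, and chance flags about 1 in 20 groups. BC048679 was at 0.80 on 4 week array 1, with the nearest array at -0.05. Ghrl was at 1.1 on the same array, with the nearest at 0.16. Both probes were below the detection limit on every 4 week array. Ccl7, also not detected there, was at 1.99 on 4 week array 3, with the nearest at 0.25. These arrays set the gap of the 3 members.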

How the results depend on the processing

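Among the 100 members, 99 kept their place with the scanner signal, 59 with quantile normalization, 26 with normexp, 44 without the 3 arrays of the lowest detection and 0 with the recorded arrays, while between 37 and 96 did with 1 array left out (lowest without 2 week array 2). The flags of the recorded arrays put 51 in place of 85 members above background on every 2 week array.

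Members called against untreated numbered 3, and 0 with normexp, the recorded arrays or the replicate block, 1 with the filter on all 16 arrays, only the 2 groups compared, the methods' test or without the 3 arrays of the lowest detection, 5 with slide as a random block, and 0 to 4 with 1 array left out. Against 4 weeks, 0 were called, 2 without the 3 arrays and 0 to 3 with 1 array left out, where 0 to 1548 of all probes were called. The median of tested members minus untreated, 0.19, became -0.27 with normexp, -0.18 with the recorded arrays and 0.05 without the 3 arrays, and 0.05 to 0.32 with 1 array left out. Normexp moved the median of all tested probes from -0.02 to -0.18. Minus 4 weeks, the median of 0.26 became -0.13 with normexp, 0.06 with quantile normalization and 0.05 with the recorded arrays. The causes were not tested, apart from the fewer arrays or probes that some alternatives use.

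Over all probes, the 223 called against untreated became 41 with normexp, 0 with the recorded arrays, 12 with the methods' test, 24 with the replicate block, 115 with the filter on all 16 arrays, 145 with the 2 groups compared and 139 without the 3 arrays. It became 5, 65 and 105 without untreated arrays 3, 2 and 1, and 127 without regular diet array 1. The 1 probe called against 4 weeks became 323 with quantile normalization (152 higher, 171 lower), 8 with no filter or slide as a random block, 141 with the 2 groups compared, 4 with the methods' test and 999 without the 3 arrays, 1548 without 4 week array 1, 1205 without untreated array 1, 342 without 4 week array 3, 13 and 4 without untreated arrays 2 and 3, and 0 with normexp, the recorded arrays, the filter on all 16 arrays, slide as a fixed block, the replicate block, or without 4 week array 2 or 4 or regular diet array 1, 2, 3, 5 or 6.

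Same-numbered arrays deviated from their group means with correlations of -0.80 to 0.34, so the numbers do not pair the samples, and the replicate block left 0 calls against 4 weeks. The member probe of Plekha4 kept its direction throughout (0.40 to 2.01). It lost its call with normexp, the recorded arrays, the replicate block and without untreated array 3. The probes of 5830417I10Rik kept their direction (1.34 to 6.71 and 0.33 to 4.30) and lost their call in 15 and 22 alternatives of 26. A probe above background on no array of a group has a bound there in place of a level.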
